A study of Drosophila melanogaster with 11 samples.

Results

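The shortest contacts in MicroC libraries of *Drosophila* embryos were described by separation and read orientation. For every library, pairs of reads on the same chromosome arm had been counted in 38 bins of separation and 4 read orientations, which makes 152 classes. The 52 classes described here are those of the 13 bins that end at or below 1000 bp, in all 4 orientations. They are counts over the whole genome, and no single locus was examined. Of the 52 classes, 50 held at least 10 pairs in every library and were tested, and the other 2 were same-strand pairs at 2–3 bp, with 5 to 361 ++ pairs and 2 to 307 -- pairs.

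Embryos were 12–16 hr old, and the sample records give whole embryos of stage 14. In all 4 genotypes, the segment with the *nhomie* boundary of the *even skipped* (*eve*) locus had been taken out and put back by recombinase-mediated cassette exchange at attP sites. The segment carried *nhomie* in its own orientation (*nhomie forward*), phage λ DNA in its place (*λ DNA*), *nhomie* inverted (*nhomie reverse*) or a copy of the *homie* boundary (*homie forward*). The series holds 11 libraries, 2 for *nhomie forward* and 3 for each of the others, with 87012109 to 472473246 unique contacts, the pairs left after removal of duplicates. The designed difference is the exchanged segment at a single locus, so for these genome-wide counts the genotypes serve as groups of libraries. Whether the lines were alike in the rest of the genome is not stated in the sources used here. An embryo of this age holds many cell types, and each class is a sum over all of them.

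In MicroC, crosslinked chromatin is cut by MNase, which digests the linker DNA between nucleosomes, and ends that lie close together are ligated. Each sequenced molecule gives a read from either end, and the orientation of the reads tells which ends were joined. Inward pairs (+-) face each other, outward pairs (-+) face away, and same-strand pairs (++ or --) point the same way. A fragment that was never ligated can only give an inward pair, separated by its own length. When the fragments of nearby nucleosomes are joined, all 4 orientations can arise. Separation is measured between the starts of the reads. Outward pairs of neighbors then start at the nucleosome edges that face each other across the linker, same-strand pairs at edges about a nucleosome and a linker apart, and inward pairs at the outer edges. At long distances these offsets no longer matter, and the 4 orientations approach equal numbers. Same-strand and outward pairs are therefore read as ligated contacts, while inward pairs also include unligated fragments.

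Several libraries stood apart or were nearly alike, and this bears on every result. In the 3 genotypes with a replicate 3, replicates 2 and 3 had nearly the same distribution of trans contacts, the pairs between different chromosome arms (chi-square of 1.21 to 1.90 per degree of freedom). Under 1 kb the same libraries differed by 287 to 345 per degree of freedom. They were counted as 1 sample, the mean of both, which left 2 samples for each genotype and 8 in all. The 2 libraries of *nhomie forward*, the deepest with 340576138 and 472473246 unique contacts, were kept as separate samples. Their chi-square in trans contacts was 6.69 per degree of freedom. A chi-square grows with depth, so this value is not directly comparable with the 1.21 to 1.90 of the merged pairs. Keeping these libraries apart is also a choice of the present tests. Replicate 1 of the other genotypes differed from its companions by 388 to 2890 per degree of freedom. Replicate 1 of these 3 genotypes (*homie forward*, *nhomie reverse* and *λ DNA*) stood apart from its companions, whereas replicate 1 of *nhomie forward* did not. The methods of the study call the replicates independent biological ones, so merging replicates 2 and 3 is a choice of the present tests, made for their likeness in trans contacts. Results with all 11 libraries taken singly are given where they change a call.

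The share of unique contacts under 1 kb differed widely between libraries, and the inward pairs set it. In *nhomie forward*, 33.3% and 32.2% of unique contacts were under 1 kb. In *λ DNA* they were 52.7%, 38.6% and 38.9% in replicates 1, 2 and 3. In *nhomie reverse* they were 61.5%, 32.5% and 32.8%, and in *homie forward* 59.1%, 47.8% and 48.3%. Replicate 1 was the highest in each genotype. The *nhomie forward* libraries lay below those of *λ DNA* and *homie forward* and overlapped those of *nhomie reverse*. The 95% Wilson interval of such a share reached at most 0.0105 percentage points on either side, covering counting error only, so depth did not limit these values.

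Inward pairs under 1 kb alone made up 21.0% and 19.8% of unique contacts in *nhomie forward*. They made up 45.1%, 25.9% and 26.3% in *λ DNA*, 55.4%, 21.4% and 21.7% in *nhomie reverse* and 50.9%, 33.8% and 34.5% in *homie forward*. Outward pairs made up between 1.98% (*nhomie reverse* replicate 1) and 4.47% (*homie forward* replicate 2), and the same-strand orientations between 2.05% and 4.73% each in the same pair of libraries. The mean share of inward pairs for *nhomie forward* was 20.4% ± 0.815 (SD, n = 2). For *λ DNA* it was 35.6% ± 13.4, for *nhomie reverse* 38.5% ± 23.9 and for *homie forward* 42.5% ± 11.8 (SD, n = 2 each). In the last 3 genotypes the SD reflects the distance of replicate 1 from replicates 2 and 3. In *nhomie forward* it is the spread of 2 libraries of which neither stood apart.

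**Figure D1:**
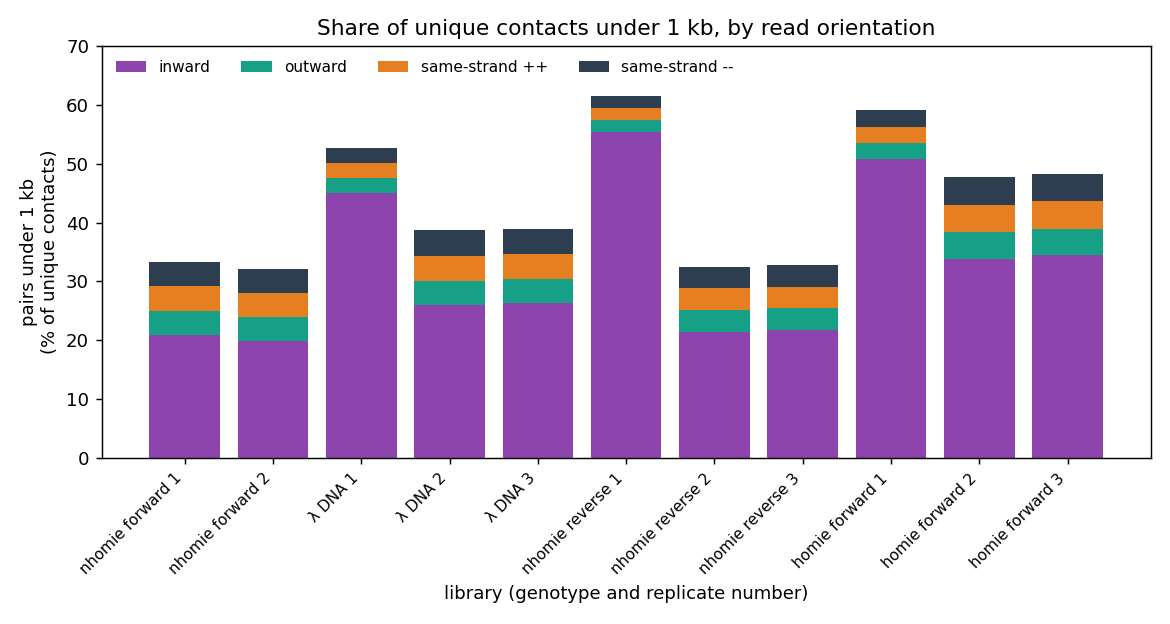
Stacked bars give the pairs under 1 kb as a percent of unique contacts (y axis) in each of the 11 libraries (x axis), split by read orientation, with no error bars because counting error is too small to draw. Replicate 1 of *λ DNA*, *nhomie reverse* and *homie forward* reached 52.7%, 61.5% and 59.1% through its inward pairs, while the bands of outward and same-strand pairs were narrower there than in the other libraries.

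If every inward pair above the level of the same-strand pairs is called excess, the excess was 15.7% to 53.3% of unique contacts over the libraries. It was 16.8% and 15.7% in *nhomie forward* and 53.3%, 17.7% and 18.0% in *nhomie reverse*. How much of the excess came from unligated fragments and how much from the geometry of ligated neighbors was not tested.

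Set against longer contacts of the same orientation, the classes that hold ligated pairs varied far less than the inward pairs. For every 100 same-strand pairs at 1 kb and beyond, there were 28.4 and 28.1 same-strand pairs under 1 kb in *nhomie forward* and 27.0, 33.9 and 33.9 in *λ DNA*. *nhomie reverse* had 33.4, 27.1 and 27.2, and *homie forward* 35.0, 42.1 and 42.2. Replicate 1 was below its companions in *λ DNA* and *homie forward* and above them in *nhomie reverse*. Inward pairs under 1 kb numbered 131 to 872 for every 100 inward pairs at 1 kb and beyond. For inward pairs, replicate 1 was the highest library in all 4 genotypes.

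To compare bins of unequal width, counts were turned into pairs per bp of bin per 1000000 unique contacts of the library, and this value is called the level. Unique contacts include the inward pairs, so a larger share of inward pairs in some bins lowers the levels of all other classes. The inward level rose to a single high peak at 178–316 bp in all 11 libraries. It was 725 and 660 in *nhomie forward*, 2047, 1126 and 1128 in *λ DNA*, 2652, 867 and 872 in *nhomie reverse* and 2420, 1442 and 1456 in *homie forward*. The bin on the short side, 100–178 bp, held 145 to 379, and the one on the long side, 316–562 bp, held 272 to 601. The bins from 178 to 562 bp together held 84.3% (*nhomie forward* replicate 2) to 93.6% (*homie forward* replicate 1) of all inward pairs under 1 kb. At 562–1000 bp the inward level was down to 16.8 to 37.8, and here replicate 1 of *λ DNA*, *nhomie reverse* and *homie forward* gave the 3 lowest values, 21.8, 16.8 and 23.2.

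Below 100 bp the inward pairs were few, between 0.363% and 1.04% of all inward pairs under 1 kb. Their level was 32.5 to 64.8 at a separation of 0 bp and fell to 3.96 to 8.66 at 3–6 bp. At 0 bp both reads start at the same base, so inward and outward pairs cannot be told apart by position. It had a low maximum at 10–18 bp, where it was 16.6 to 38.6 and stood above both neighboring bins in every library, 2.62 to 4.50 times above the next one, 18–32 bp.

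Outward pairs were spread in the opposite way. Their level was high from 1 bp to 56 bp, between 54.5 and 216, and fell from there. Between 26.2% and 31.3% of the outward pairs under 1 kb were separated by less than 100 bp, against 1.76% to 3.30% of the same-strand pairs. At 32–56 bp, a separation on the scale of linker DNA, the outward level was 123 and 122 in *nhomie forward* and 73.5, 122 and 123 in *λ DNA*. It was 60.4, 116 and 117 in *nhomie reverse* and 80.1, 162 and 163 in *homie forward*. Replicate 1 of *λ DNA*, *nhomie reverse* and *homie forward* was again set apart, this time at the low end. Inward pairs under 1 kb made up 45.1%, 55.4% and 50.9% of the unique contacts of these libraries. A lower outward level there is therefore not by itself a smaller share of outward pairs among the ligated contacts. At 100–178 bp the outward level had dropped to 26.6 to 48.5, so that the level at 32–56 bp was 2.27 to 3.90 times as high.

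The outward profile had a shape of its own within this range. The highest level of all lay at a separation of 1 bp, the 1–2 bp bin, in all 11 libraries, with values of 120 to 216. At a separation of 0 bp the outward level was 31.4 to 61.8, and the level at 1 bp was 3.35 to 3.91 times as high. Inward and outward pairs cannot be told apart at 0 bp, where the inward level was 32.5 to 64.8. The step is therefore not a trait of outward pairs alone. From 10 bp on, the highest outward bin was 10–18 bp in both libraries of *nhomie forward* and 32–56 bp in the 9 libraries of the other genotypes. In *nhomie forward* the bins from 10 to 56 bp differed little, 130, 129 and 123 in replicate 1, while *homie forward* replicate 2 rose from 134 to 150 and 162. Outward pairs at 178–316 bp were 0.844 to 1.41 times as frequent per bp as those at 100–178 bp, so a second rise at the longer separation was seen in some libraries and not in others.

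From 1 bp on, same-strand pairs were rarest at a few bp and most frequent at the scale of a nucleosome and its linker. Their level, as the mean of ++ and --, was at most 0.396 in the 10–18 bp bin and 0.410 to 1.17 at 18–32 bp. It was 4.98 to 11.8 at 32–56 bp and 11.5 to 21.6 at 56–100 bp. At 100–178 bp it was 68.8 and 67.9 in *nhomie forward* and 43.3, 75.9 and 75.6 in *λ DNA*. In *nhomie reverse* it was 40.5, 63.8 and 63.6, and in *homie forward* 51.8, 94.6 and 93.6. The next bin, 178–316 bp, was nearly as high, since the first was 0.948 to 1.05 times the second. From there the level fell by a factor of 1.43 to 1.81 to 316–562 bp and of 1.53 to 1.64 to 562–1000 bp. The step up from 56–100 bp to 100–178 bp differed more between libraries. The shorter bin was at 0.307 and 0.308 of the longer one in *nhomie forward*, 0.161 in replicates 2 and 3 of *homie forward* and 0.272 in its replicate 1.

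**Figure D2:**
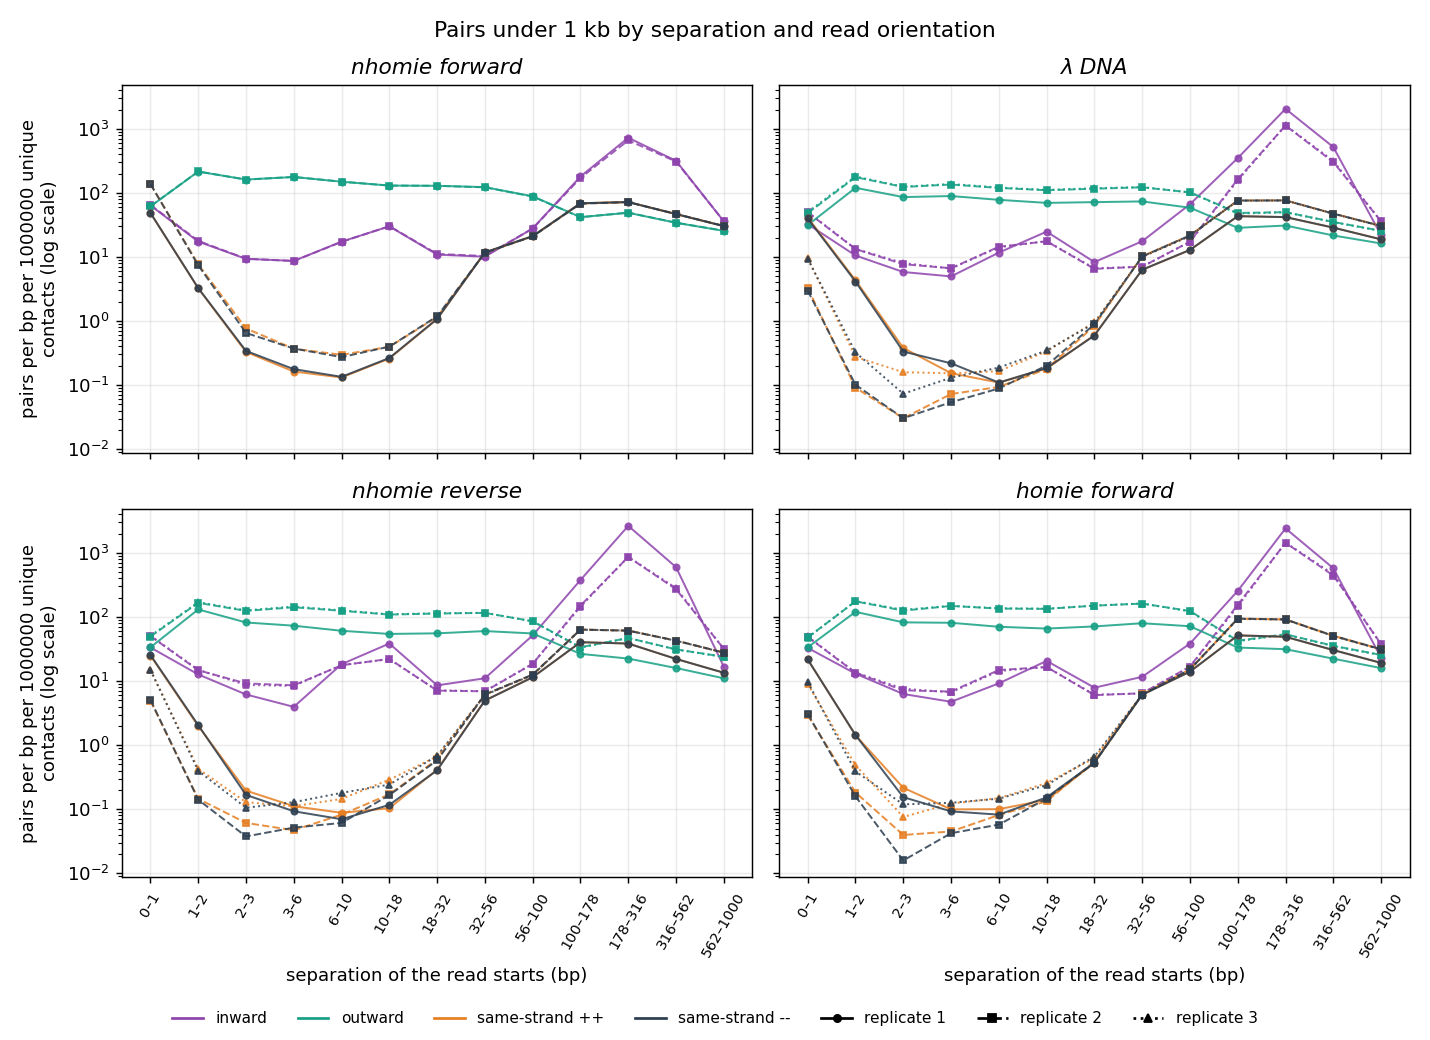
Level of each class (pairs per bp of bin per 1000000 unique contacts, log scale) against the bin of separation (bp, bins of unequal width drawn at equal steps), with 1 panel per genotype, a color per orientation and a line and marker per replicate. Inward pairs peaked at 178–316 bp with 660 to 2652, outward pairs had 54.5 to 216 from 1 bp to 56 bp, and the ++ and -- lines lay on each other from 32 bp on.

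The orientations were compared bin by bin with the same-strand mean of the same library, so the number of unique contacts cancels. Over the 8 samples, the log2 ratio was tested against 0 by an exact two-sided sign-flip permutation test, adjusted by the Benjamini-Hochberg method over all 90 ratios of the 30 bins tested. The smallest p that 8 samples allow is 0.0078125, which after adjustment was 0.0207, and every call under 1 kb had these values and the same direction in 8 of 8 samples. In the inward pairs, 9 of 12 bins under 1 kb were called higher than same-strand. Of all 30 bins, 53.3% were called higher, 16 in number, since 7 of the 18 bins at 1 kb and beyond were called as well. Without the 3 libraries that stood apart, 9 bins under 1 kb were called as well, with the remaining 8 libraries taken singly. Those 8 include libraries that are otherwise merged into 1 sample. With them merged, too few samples would remain for any bin to be called, so this count is not a separate check of the calls.

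At 178–316 bp the inward pairs were 10.1 and 9.21 times as frequent as same-strand pairs in *nhomie forward* and 48.9, 14.8 and 14.8 times in *λ DNA*. They were 68.7, 14.1 and 14.2 times as frequent in *nhomie reverse* and 49.2, 15.7 and 15.9 times in *homie forward*. Replicate 1 of the last 3 genotypes was above all other libraries by a factor of more than 3, and without it the ratio ran from 9.21 to 15.9. Over the 8 samples the mean log2 ratio was 4.45 ± 0.40 (SE), or 21.8-fold. Over the 8 libraries left when these 3 are set aside it was 3.74.

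At 316–562 bp the ratio was 6.79 and 6.59 in *nhomie forward*, 18.1, 6.37 and 6.69 in *λ DNA*, 27.1, 6.34 and 6.65 in *nhomie reverse* and 18.9, 8.72 and 9.27 in *homie forward*. Its mean log2 value was 3.40 ± 0.30 (SE). At 100–178 bp it ran from 1.56 (*homie forward* replicate 3) to 9.35 (*nhomie reverse* replicate 1), with a mean log2 value of 1.78 ± 0.33 (SE), and 1.08 without the 3 libraries. At 562–1000 bp the ratio was nearly the same everywhere, 1.14 to 1.24, with a mean log2 value of 0.25 ± 0.01 (SE). The 3 libraries no longer stood apart as a set in the ratio, although their levels did. *nhomie reverse* replicate 1 still had the highest ratio, 1.24, against 1.14 to 1.20 in the other 8 libraries. The inward ratios of the 3 libraries lay above those of the other 8, without overlap, in every bin from 10 to 562 bp, and overlapped them in the bins under 10 bp and at 562–1000 bp.

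The bins of the shortest separations gave inward ratios of another kind, because the same-strand pairs were so rare there. The mean log2 ratio was highest at 6–10 bp, 6.95 ± 0.20 (SE), followed by 6.88 ± 0.26 (SE) at 10–18 bp, where the libraries ran from 51.7 to 349. The mean log2 ratio was lowest at 562–1000 bp, 0.25, and next to lowest at 32–56 bp, 0.36 ± 0.26 (SE). At 32–56 bp the inward pairs were 1.90, 1.05 and 1.04 times the same-strand pairs in *homie forward*, 2.79, 0.691 and 0.700 in *λ DNA*, 0.857 and 0.886 in *nhomie forward* and 2.23, 1.13 and 1.14 in *nhomie reverse*. This bin was not called (exact sign-flip permutation test, p = 0.203, adjusted p = 0.339, higher in 5 of 8 samples). The bins at 0–1 bp (exact test, adjusted p = 0.244) and 56–100 bp (exact test, adjusted p = 0.0586) were not called either, the latter with inward pairs higher in 7 of 8 samples and a mean of 1.87-fold. With the 11 libraries taken singly, 0–1 bp was called higher, in 9 of 11 libraries (exact test, adjusted p = 0.0404). So was 56–100 bp, also in 9 of 11 libraries (exact test, adjusted p = 0.0461). That makes 11 of 12 bins, and 32–56 bp was not called (exact test, adjusted p = 0.411). The call at 0–1 bp is not one of inward pairs alone, since outward pairs cannot be told apart from them there.

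Outward pairs crossed over from excess to deficit at 100 bp in every library. They were called higher than same-strand in 7 of 12 bins, all from 1 to 100 bp, where 23.3% of all 30 bins were called higher and 0 of the 18 bins at 1 kb and beyond. They were called lower in the other 4 bins from 100 to 1000 bp, where 36.7% of all bins were called lower, 7 of them at 1 kb and beyond. The remaining bin, 0–1 bp, was not called (exact sign-flip permutation test, adjusted p = 0.253). With the 11 libraries taken singly it was called higher (exact test, adjusted p = 0.0416, 9 of 11 libraries). Inward and outward pairs cannot be told apart in this bin, so its inward and outward tests are not separate results.

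The excess was very large at a few bp. At 3–6 bp there were 1042 and 479 outward pairs for each same-strand pair in *nhomie forward*, 480, 2134 and 974 in *λ DNA*, 716, 2880 and 1216 in *nhomie reverse* and 848, 3417 and 1204 in *homie forward*. This bin had the highest mean log2 ratio, 9.92 ± 0.29 (SE). The outward level of this bin ran from 73.3 to 177 and the same-strand level from 0.0436 to 0.370. At 32–56 bp the ratio was 10.5 in both libraries of *nhomie forward*, 11.7, 12.0 and 12.3 in *λ DNA*, 12.1, 18.9 and 19.0 in *nhomie reverse* and 13.0, 26.2 and 26.5 in *homie forward*. At 56–100 bp it ran from 4.18 to 8.16, in both cases with replicates 2 and 3 of *homie forward* highest and *nhomie forward* lowest.

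The deficit began at once in the next bin. At 100–178 bp there were 0.607 and 0.614 outward pairs for each same-strand pair in *nhomie forward* and 0.658, 0.640 and 0.627 in *λ DNA*. There were 0.658, 0.530 and 0.523 in *nhomie reverse* and 0.646, 0.452 and 0.446 in *homie forward*. This bin had the lowest mean log2 ratio, -0.75 ± 0.07 (SE). At 178–316 bp the ratio was 0.582 to 0.767, with a mean log2 value of -0.59 ± 0.05 (SE), at 316–562 bp 0.696 to 0.754 (-0.45 ± 0.01, SE) and at 562–1000 bp 0.815 to 0.863 (-0.25 ± 0.01, SE). The library with the lowest outward ratio at 100–178 bp, *homie forward* replicate 3, had the highest one at 32–56 bp.

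Summed over all bins under 1 kb, these opposite departures nearly cancelled. The number of outward pairs was 0.945 (*homie forward* replicate 3) to 1.02 times (*nhomie reverse* replicate 2) the mean number of ++ and -- pairs. It was 0.988 in both libraries of *nhomie forward*. For the inward pairs nothing of the kind was seen, since they outnumbered the outward pairs 4.84 to 28.0 times. Beyond 1 kb the orientations came together, and from 1778–3162 bp on both inward and outward pairs stayed within 10% of the same-strand mean in all 11 libraries. In the last bin under 1 kb the departures of both orientations were of one size and opposite sign, with mean log2 ratios of 0.25 and -0.25.

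**Figure D3:**
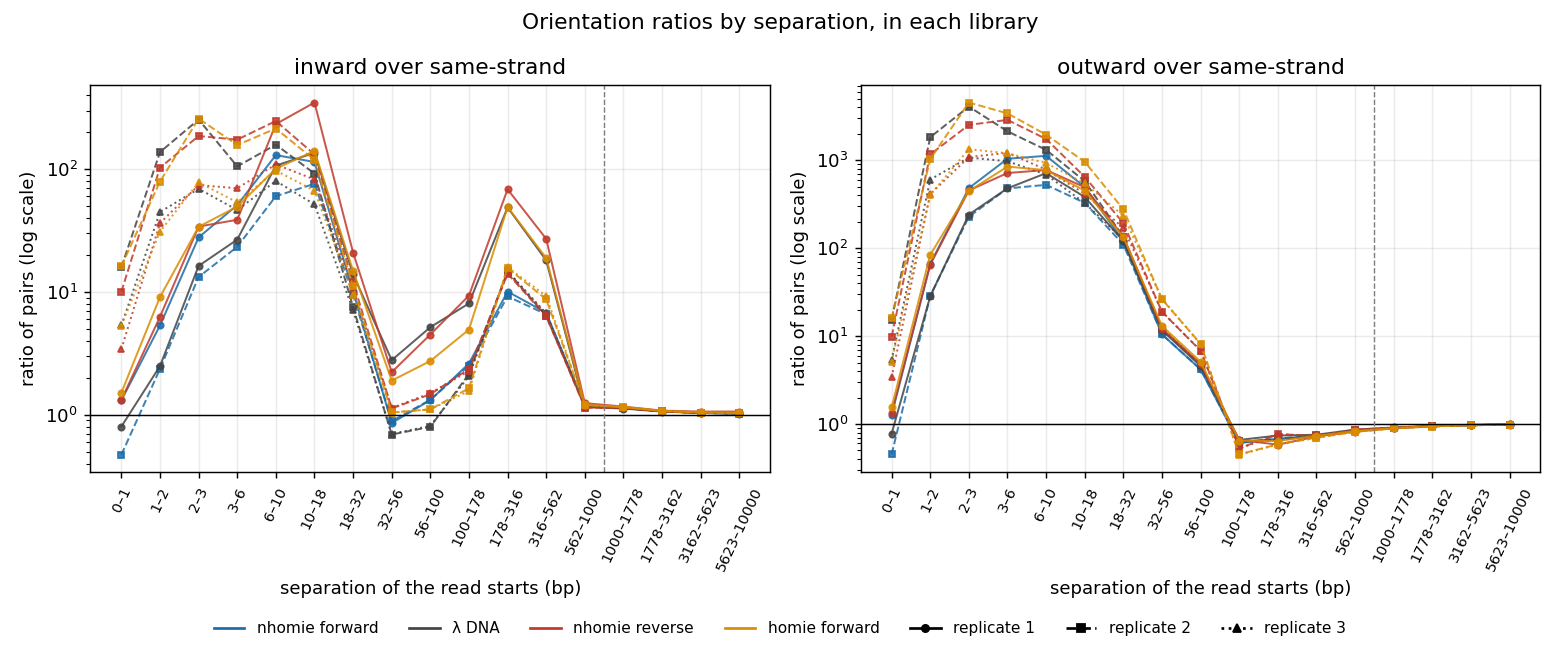
Ratio of inward (left) and outward (right) pairs to the mean of ++ and -- (log scale) against the bin of separation (bp) in each of the 11 libraries, with a color per genotype and a line and marker per replicate. The solid horizontal line is a ratio of 1 and the dashed vertical line is 1 kb. The inward ratio was highest between 2 and 18 bp (51.7 to 349 at 10–18 bp) and had a peak of 9.21 to 68.7 at 178–316 bp, and the outward ratio passed below 1 at 100 bp in all libraries.

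The same-strand orientations served as a check within each library, since ++ and -- pairs mirror each other. Of the same-strand pairs under 1 kb, 50.0% were ++ in every library. Within each library the numbers of ++ and -- pairs per bin gave a chi-square of 0.392 to 1.74 per degree of freedom, and after adjustment over 22 such tests none of the 11 libraries differed beyond the counting noise (lowest unadjusted p = 0.0465, adjusted p = 0.256). Over the 8 samples, 0 of 12 bins were called in either direction (exact sign-flip permutation test, 0 also at an unadjusted p under 0.05), and 0% of all bins. Without *homie forward* replicate 1, 1 bin was called, 562–1000 bp, with 0.999 -- pairs for each ++ pair (exact test, adjusted p = 0.0391). The ratio of -- to ++ pairs was highest on average at 10–18 bp, 1.03 (exact test, p = 0.219, adjusted p = 0.352), and lowest at 6–10 bp, 0.919 (exact test, p = 0.0781, adjusted p = 0.160). At 178–316 bp it was 0.9999.

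Same-strand pairs a few bp apart were the classes in which otherwise alike libraries differed most. At a separation of 0 bp, where both reads start at the same base on the same strand, the level of ++ and -- together was averaged. In *homie forward* it was 21.8, 3.01 and 9.33 in replicates 1, 2 and 3, in *λ DNA* 40.5, 3.13 and 9.44, and in *nhomie reverse* 25.3, 5.03 and 15.0. In *nhomie forward* it was 48.6 and 137 in replicates 1 and 2. Replicate 3 was thus above replicate 2 by a factor of 2.97 to 3.10 in each of the 3 genotypes that have both. Inward pairs at 0 bp differed by a factor of only 1.02 between them and outward pairs by 0.990 to 1.05. All these pairs had passed the removal of duplicates.

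The gap between replicates 2 and 3 closed with separation from 3 bp on. Their same-strand levels differed by a factor of 2.57 to 3.11 at 1–2 bp and 2.38 to 3.82 at 2–3 bp, a bin with few pairs. They differed by 2.24 to 2.85 at 3–6 bp, 1.94 to 2.27 at 6–10 bp, 1.58 to 1.79 at 10–18 bp and 1.09 to 1.19 at 18–32 bp. From 32 bp to 1000 bp they differed by a factor of 0.980 to 1.002, and replicate 3 was no longer the higher one. Replicate 3 held fewer unique contacts than replicate 2 in all 3 genotypes, 92409147 against 126083135 in *homie forward*. In *nhomie forward* the deeper library, replicate 2, had the higher level. The part of depth in this was not tested. The same-strand pairs under 32 bp were so few that the totals hardly changed, since all same-strand pairs under 100 bp were 1.76% to 3.30% of those under 1 kb.

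**Figure D4:**
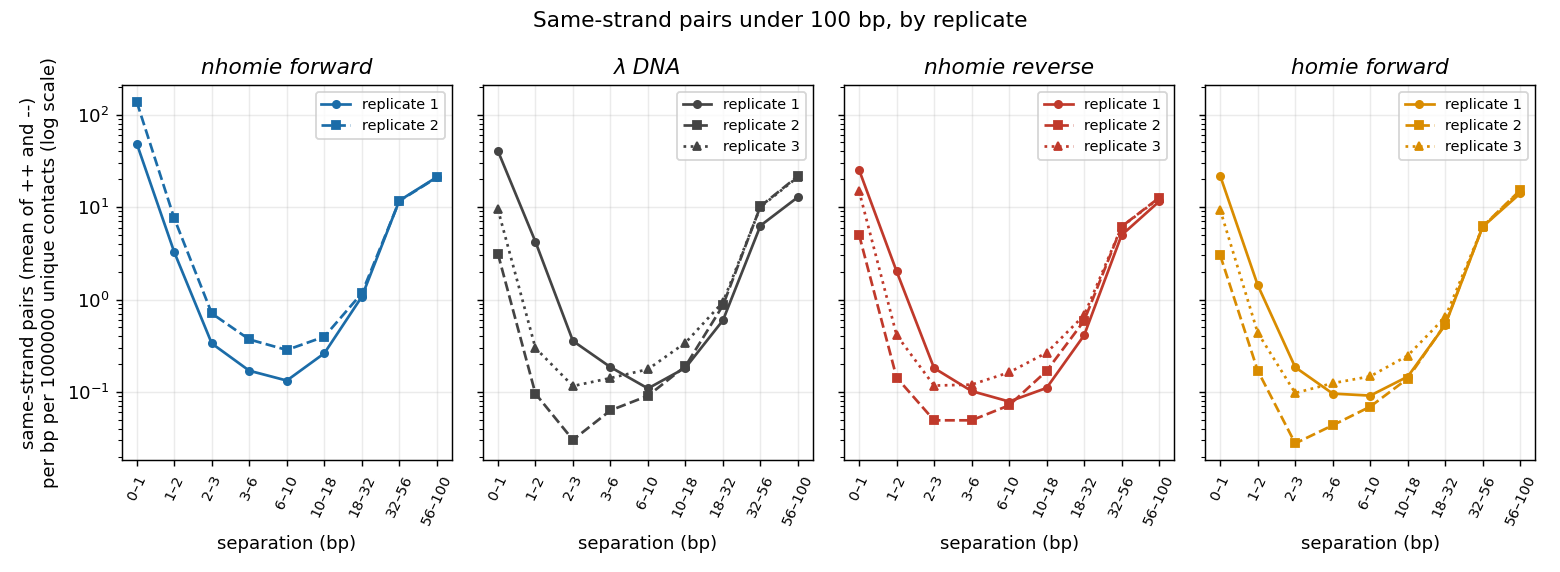
Level of same-strand pairs (mean of ++ and --, pairs per bp per 1000000 unique contacts, log scale) in the bins under 100 bp (x axis, bp), with 1 panel per genotype and a line and marker per replicate. Replicate 3 lay 2.97 to 3.10 times above replicate 2 at 0–1 bp, and the lines of replicates 2 and 3 met from 32 bp on.

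Replicates 2 and 3 also differed in the inward pairs, by little but far beyond the counting noise. The chi-square per degree of freedom of the inward pairs was 1130 for *λ DNA*, 845 for *nhomie reverse* and 1000 for *homie forward*, against 13.1 to 30.4 for the outward pairs. In all 3 genotypes replicate 3 had a lower inward level at 100–178 bp, by a factor of 0.938 to 0.960, and a higher one at 316–562 bp, by 1.04 to 1.05. At 178–316 bp the factor was 1.002 to 1.01. The outward and same-strand levels of these 3 bins differed by a factor of 0.977 to 1.002.

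The question of whether the replacements differed in these short contacts was tested for each class by an exact permutation test of the F ratio over the 4 genotypes, with 2 samples each. No class was called. Of the 50 classes under 1 kb, 0 differed in level after adjustment over the 122 classes tested (2 at an unadjusted p under 0.05), and 0% of all classes. With 2 samples a genotype p cannot go below 0.00952. After adjustment over 122 classes, a class alone at this floor could not be called, however large its difference. The 0 calls therefore do not show that the genotypes were alike. The floor was reached by the ++ pairs at 32–56 bp (exact permutation test, adjusted p = 0.387), with p = 0.0190 for the -- pairs of that bin. Their same-strand level was 11.8 and 11.6 in *nhomie forward*, 6.30, 10.2 and 10.0 in *λ DNA*, 4.98, 6.15 and 6.14 in *nhomie reverse* and 6.14, 6.19 and 6.14 in *homie forward*. *nhomie forward* lay above all other libraries and *λ DNA* between it and the rest, without overlap, while *nhomie reverse* and *homie forward* overlapped. The lowest *λ DNA* value, 6.30 in replicate 1, was close to 6.19 in *homie forward*. These levels are per unique contacts, which include the inward pairs. With inward pairs under 1 kb left out of that total, no class under 1 kb reached the floor (exact permutation test, lowest p = 0.0286). Per pair on the same arm at 1 kb or more, 1 class was at an unadjusted p under 0.05 (exact permutation test, p = 0.00952).

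Of the 36 orientation ratios under 1 kb, 0 differed between genotypes after adjustment over 90 ratios (exact permutation test, 0 at an unadjusted p under 0.05), and 0% of all ratios. For the inward ratio at 178–316 bp the exact permutation test gave p = 0.476 (adjusted p = 0.978), and the mean of *nhomie forward* was 9.65 ± 0.624 (SD, n = 2). For *λ DNA* it was 31.9 ± 24.2, for *nhomie reverse* 41.4 ± 38.6 and for *homie forward* 32.5 ± 23.6 (SD, n = 2 each). For the outward ratio at 32–56 bp the exact permutation test gave p = 0.152 (adjusted p = 0.978). With so few samples, differences between genotypes of the size of the spread between replicates were not detectable. The floor of 0.00952 holds for the ratios too, and after adjustment over 90 ratios a ratio alone at it could not be called.

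When replicate 1 of *λ DNA*, *nhomie reverse* and *homie forward* was set aside and the remaining 8 libraries were taken singly, 39 of 50 classes under 1 kb were called for their level, and 91.0% of all 122 classes. This count rests on replicates 2 and 3 as separate samples, although they were close to the sampling noise in trans contacts, and counting them as 1 would leave 1 sample for each of those genotypes. The orientation ratios gave 0 of 36 calls in the same setting, with 15 at an unadjusted p under 0.05 and a lowest adjusted p of 0.0536 (exact permutation test). That adjusted p belongs to ratios at 0.00952, the smallest p this setting allows. How low it can go depends on how many ratios reach this floor together. The 0 calls therefore do not show that the ratios were alike between genotypes.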

How the data were processed

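MicroC libraries were made by the authors from whole embryos, with 50 uL of embryos and 60 U of MNase each, digested to a ratio of mononucleosomes to dinucleosomes of 4, and sequenced with 50 bases per read. Reads were aligned by the authors, using BWA-MEM, to a genome of each genotype edited from Release 6 (dm6 in the submitters' processing notes). Pairs were parsed, de-duplicated and filtered by them with Pairtools, which dropped pairs that mapped at only one end or with a mapping quality below 3. Versions were not given in the sources used here. The authors deposited a list of statistics for each library, of other kinds than a single unit: raw counts of pairs, fractions and chromosome lengths. Only the raw counts were used. In every library the counts by separation added up to all cis contacts.

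Levels, ratios and log2 ratios were computed in Python 3.11.15 (scipy 1.17.1, numpy 2.4.6) and drawn in matplotlib 3.10.9. Classes with fewer than 10 pairs in any library were left out. The classes of a library share one total, so no count model was fitted. Genotypes were compared by exact permutation tests of the F ratio and orientations by exact sign-flip tests, adjusted over all classes or ratios with a threshold of 0.05. Both were tested on simulated data. Every bin from 100 to 1000 bp was named, bins under 100 bp by their range, and for each ratio the bins with the highest and lowest mean log2 value. The classes, these rules and the tests were chosen with earlier results of these data known. Alternatives were another minimum of pairs, other denominators, ++ alone as the reference, a linear scale, all libraries taken singly, the replicate number as a block and each library left out.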

Additional observations from a re-analysis of the deposited data

Results flagged for a closer look

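Between genotypes, ratios on opposite sides of 1 in every library were seen in 2 bins. For inward over same-strand pairs at 32–56 bp, all libraries of *homie forward* (mean ratio 1.47) and *nhomie reverse* (mean ratio 1.68) were above 1 and both libraries of *nhomie forward* (mean ratio 0.872) were below 1, while *λ DNA* had libraries on either side. The test of the ratio over genotypes gave p = 0.676 and an adjusted p of 0.978 (exact permutation test). For -- over ++ pairs at 0–1 bp, all libraries of *nhomie reverse* (mean ratio 1.02) were above 1 and all of *λ DNA* (mean ratio 0.960) below 1, with an exact permutation p of 0.0857 (adjusted p = 0.978). No single pair of genotypes was tested.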

How the results depend on the processing

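The mean log2 ratios of inward and outward pairs in the 4 bins from 100 to 1000 bp kept their direction and their calls in all 15 alternatives run for each. In 1 of these the 3 libraries that stood apart were set aside and the other 8 were taken singly. With replicates merged, that setting would leave too few samples for any call. With a minimum of 1000 pairs in every library, only 6 bins under 1 kb could be tested, and inward pairs were called in 4 and outward pairs in 6 of them. Calls of -- over ++ were 0 to 1 with each library left out, the 1 call being 562–1000 bp without *homie forward* replicate 1 (-- 0.999 times ++, exact sign-flip permutation test, adjusted p = 0.0391, 7 samples). Calls of genotype level were 39 of 50 with the 3 libraries that stood apart set aside and the other 8 taken singly, an alternative chosen after seeing the data, and 0 in all others. With the 11 libraries taken singly, inward calls were 11 and outward calls 12 of 12 bins. Both counts include 0–1 bp, where inward and outward pairs cannot be told apart. For genotypes they gave 0 calls under 1 kb (4 of all 122 levels), with 8 of 50 levels and 1 of 36 ratios at an unadjusted p under 0.05. With the replicate block, 0 levels and 0 ratios were called (4 and 2 at an unadjusted p under 0.05). Deviations of same-numbered libraries from their genotype means correlated at 0.804 to 0.968 in all 9 pairs among *homie forward*, *nhomie reverse* and *λ DNA*, and at -0.895 to -0.512 in all 6 pairs with *nhomie forward*, so the numbers were not taken as a pairing over the 4 genotypes. Of 11 libraries, 9 correlated best with one of their own number. Depth limited the same-strand pairs at 2–3 bp, with as few as 2 pairs in a library.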
